A study of Arabidopsis thaliana with 6 samples.

Results

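The enzymes that carry the Calvin cycle from 3-phosphoglycerate back towards its carbon dioxide acceptor are encoded in Arabidopsis thaliana by nuclear genes whose products enter the plastid. Transcripts of 9 such genes are described here, out of 33557 genes in the comparison analysed. The genes were taken by locus identifier and are SBPASE, CFBP1, PGK1, TKL1, TKL2, FBA1, FBA2, FBA3 and RPE. Their choice used no measured value of this comparison, though earlier results of these data were known. RNA came from seedlings of the accession Landsberg erecta (Ler), kept in darkness for 4 days and then under far-red light for 3 hours. One group was wild type and the other carried the mutant allele phyA-1 in the same accession. Both groups had the same dark growth and the same light, and each had 3 libraries, described by the labels as independent biological replicates. Seedlings left in darkness were not part of the comparison, so differences present before the light cannot be told apart from a response to it.

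The Calvin cycle fixes carbon dioxide with Rubisco, reduces the product to triose phosphate and rebuilds ribulose 1,5-bisphosphate from most of that triose phosphate. Phosphoglycerate kinase spends ATP at the start of the reduction. Aldolase and transketolase then condense and reshuffle sugar phosphates, fructose-1,6-bisphosphatase and sedoheptulose-1,7-bisphosphatase each remove a phosphate in a step that is in effect irreversible, and ribulose-phosphate 3-epimerase supplies the substrate of phosphoribulokinase. Both bisphosphatases are switched on by thioredoxin in illuminated leaves. Phytochrome A is the photoreceptor through which dark-grown seedlings perceive continuous far-red light, and many nuclear genes for plastid proteins are known to be induced by light during greening.

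Levels are given as FPKM pooled by the authors within a genotype, which by definition are mapped fragments scaled by transcript length and by library total. Pairs of levels are given with wild type first. The table holds 1 such value per gene and genotype, so there are no values per library, no SD, and no order of levels that could be tested against a spread. Read depth per library is unknown. Calls are those of the authors' deposited table, at a q-value of 0.05 or below, and fell or rose means called lower or higher in phyA-1. Ratios are log2((FPKM + 1) in phyA-1 over (FPKM + 1) in wild type), which understates the change of low genes. The words locus shared mark a gene whose deposited locus also covers another gene, so that its level is less certain. PHYA itself had 167 FPKM in wild type and 16.0 in phyA-1, a log2 ratio of -3.30. Of the seedling markers, the protochlorophyllide oxidoreductase gene PORA had 418 FPKM in wild type and 916 in phyA-1, the root hair expansin genes EXPA7 and EXPA18 were present at 12.04 to 28.3 FPKM, and the seed storage gene CRA1 had 1.71 and 10.5 FPKM. Of these 4 markers PORA, EXPA18 and CRA1 rose, and the part of cell or tissue makeup in the values below was not tested. In bulk RNA of this kind, fewer cells of a type and less RNA per cell cannot be told apart.

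Of the 9 genes, 7 fell in phyA-1, none rose, and TKL2 and FBA3 were not called. Over all 22892 tested genes, 8.54% were called lower and 8.61% higher, 17.2% in either direction. Among the 2485 tested genes whose mean level lay within the range of the 9, from 58.0 to 465 FPKM, 12.1% were called lower and 13.4% higher. The median log2 ratio of the 9 genes was -0.73, beside 0.05 over all tested genes and 0.11 over those 2485 genes. Summed over the 9 genes, transcripts came to 2250 FPKM in wild type and 1324 in phyA-1, so that phyA-1 held 58.8% of the wild-type sum. The 2 genotypes differed in total, as all tested genes summed to 1061770 FPKM in wild type and 1738100 in phyA-1, or 164%. Sums given here and below are not adjusted for this. Scaled to the summed FPKM without the highest gene, the median log2 ratio of the 9 was -0.77. This shift from -0.73 is small, so the totals over all genes were close once that gene was left out. The same 7 genes were called lower at a q-value of 0.01, a rule that calls 6.52% of tested genes lower. They were also called after Benjamini-Hochberg adjustment of the deposited p-values over all tested genes (8.02% lower) and over the genes with a mean of at least 5 FPKM (10.4% lower). Ratios were spread over a wide range, from -1.95 for FBA1 to -0.02 for FBA3.

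**Figure D1:**
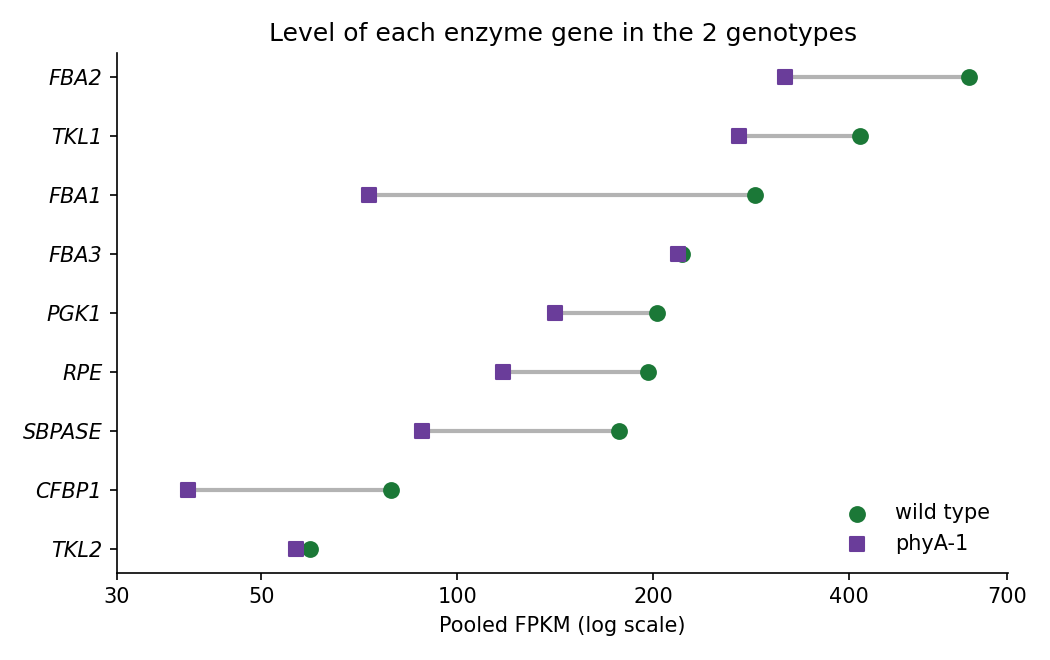
Pooled FPKM of the 9 genes on a log axis, with circles for wild type, squares for phyA-1 and 1 row per gene in order of the wild-type level; solid lines join genes called lower and dotted lines those not called. FBA1 shows the longest line, from 286 to 73.3 FPKM, while the points of FBA3 and TKL2 nearly coincide.

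The upstream sequences of the plastid aldolase genes FBA1 and FBA2 and of CFBP1 are given first, because FBA1 and FBA2 had the lowest ratio and the highest level of the 9 genes and CFBP1 was the one gene of the 8 searched with both a G-box and an I-box. Each is the stretch of 250 bases that ends just before the gene's annotated start, written 5′ to 3′ on the gene's own strand, from the TAIR10.1 genome with RefSeq gene starts. The windows are chr2:9130620-9130869 and chr4:18166009-18166258 on the minus strand, and chr3:20016587-20016836 on the plus strand. Capitals mark the motifs found, which are the G-box CACGTG and the I-box GATAAG or its reverse complement; both aldolase windows held none and are in lower case throughout.
FBA1: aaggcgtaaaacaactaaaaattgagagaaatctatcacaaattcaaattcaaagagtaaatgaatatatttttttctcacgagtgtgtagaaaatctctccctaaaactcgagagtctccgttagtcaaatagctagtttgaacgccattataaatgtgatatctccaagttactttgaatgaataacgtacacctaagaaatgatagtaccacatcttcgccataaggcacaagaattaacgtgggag
FBA2: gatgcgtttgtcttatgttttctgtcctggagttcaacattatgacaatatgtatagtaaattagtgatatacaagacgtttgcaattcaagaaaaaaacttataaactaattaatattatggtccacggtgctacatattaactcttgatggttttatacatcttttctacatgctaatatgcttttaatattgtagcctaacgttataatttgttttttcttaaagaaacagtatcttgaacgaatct
CFBP1: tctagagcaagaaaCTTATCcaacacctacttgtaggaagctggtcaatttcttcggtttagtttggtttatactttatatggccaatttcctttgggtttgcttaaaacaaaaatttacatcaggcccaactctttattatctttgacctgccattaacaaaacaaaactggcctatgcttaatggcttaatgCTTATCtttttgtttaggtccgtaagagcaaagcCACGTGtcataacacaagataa

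In the CFBP1 window a G-box begins 22 bases before the annotated start, and the reverse complement of the I-box begins 56 and 236 bases before it. Both motifs are known from promoters of light-regulated plant genes. The windows of 8 genes, all but FBA3, were searched on both strands for 6 motifs, with the same windows of 27438 protein-coding genes as background. The G-box was present for CFBP1, which fell, and for TKL2, which was not called, against 6.49% of all windows. The I-box was present for CFBP1 alone of the 8, against 12.3%. The letters AAAAATCT, bound by the clock factor CCA1, occurred for TKL2 alone, against 6.69% of windows. None of the 8 windows held CACATG, an E-box bound by PIF factors (11.1% of all windows), CACGCGC, bound by FHY3 (1.06%), or the evening element AAAATATCT (2.36%). Another annotated gene reaches into 4 of the 8 windows, those of SBPASE, PGK1, TKL1 and TKL2. The end of RAD51C lies 27 bases before the start of TKL2, so both matches in the TKL2 window lie inside RAD51C. A match is a string of letters in this window and no measured binding. For 8 of the 9 genes RefSeq places the start further upstream than the deposited locus does, by 28 to 379 bases, so letters close to the other start lie outside these windows.

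Fructose-bisphosphate aldolase joins triose phosphates into fructose 1,6-bisphosphate and also makes sedoheptulose 1,7-bisphosphate. Its plastid forms are encoded by 3 genes. FBA1 (AT2G21330, TAIR10 chromosome 2, 9128147 to 9130240) had 286 FPKM in wild type and 73.3 in phyA-1. Its level in phyA-1 was 25.6% of that in wild type (log2 ratio -1.95; q = 0.00045, the authors' deposited table). Only 0.712% of tested genes had a lower ratio. FBA2 (AT4G38970, chromosome 4, 18163496 to 18165762), the highest of the 9 genes in both genotypes, had 612 FPKM in wild type and 318 in phyA-1. That is a log2 ratio of -0.94, again with q = 0.00045 in the authors' deposited table. FBA3 (AT2G01140, PDE345 in RefSeq, chromosome 2, 94811 to 96655) had 221 and 218 FPKM, a log2 ratio of -0.02. Its p of 0.900 and q of 0.948 in the authors' deposited table do not show that the level was equal.

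The pooled values give the makeup of the plastid aldolase transcripts in each genotype. Together the 3 genes had 1119 FPKM in wild type and 610 in phyA-1. FBA1 supplied 25.6% of this sum in wild type and 12.02% in phyA-1. For FBA3 the order was opposite, with 19.8% in wild type and 35.8% in phyA-1, while FBA2 had the largest share of the 3 in each genotype, 54.7% and 52.2%. In wild type FBA1 stood above FBA3, and in phyA-1 FBA3 stood above FBA1. Of the 510 FPKM by which the family sum was lower, FBA2 made up 57.6%, FBA1 41.8% and FBA3 0.616%. Whether the ratios of the 3 genes differ from each other could not be tested without values per library. The coding sequences of FBA1 and FBA2 were 84.1% identical over 1190 aligned bases, and their longest identical stretch of mRNA was 35 bases, whereas FBA3 was 73.6% identical to FBA1 and 72.1% to FBA2. How long the reads were, and how those matching several genes were treated, is not stated, so some sharing of reads between FBA1 and FBA2 is possible.

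**Figure D2:**
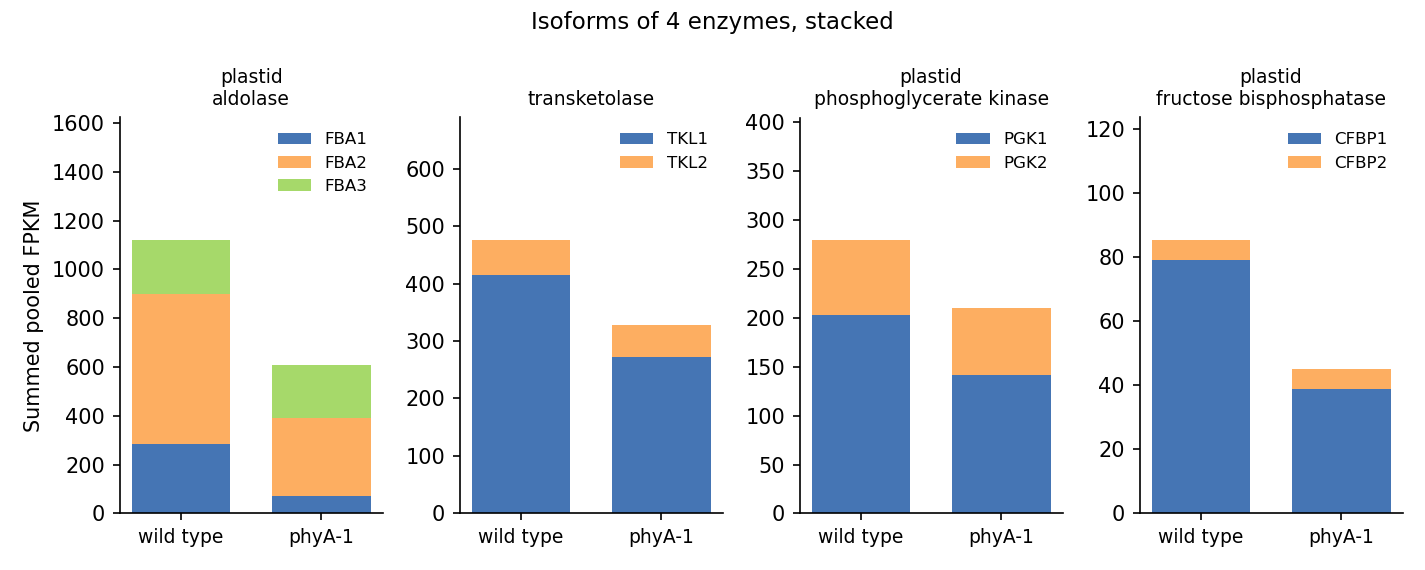
Summed pooled FPKM of the isoforms of 4 enzymes in wild type (left bar) and phyA-1 (right bar), with 1 colour per gene and a separate axis per enzyme. In the aldolase panel the FBA1 block shrinks from 286 to 73.3 FPKM and the FBA3 block measures 221 and 218 FPKM.

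The cytosolic aldolase genes, FBA4 to FBA8, serve glycolysis and sucrose synthesis. As a sum they had 801 FPKM in wild type and 762 in phyA-1, so phyA-1 held 95.2%, against 54.5% for the plastid genes. FBA8 (640 and 649 FPKM) and FBA6 (122 and 102 FPKM) made up most of the sum in both genotypes, and neither was called. FBA5 fell, with 22.3 FPKM in wild type and 2.60 in phyA-1 (log2 ratio -2.70; q = 0.00045, the authors' deposited table). That ratio is lower than the ratio of any of the 9 genes. FBA4 (8.69 and 4.61 FPKM) and FBA7 (6.68 and 3.75 FPKM) also fell, both at low levels.

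SBPASE and CFBP1 encode the 2 bisphosphatases. SBPASE (AT3G55800, chromosome 3, 20709386 to 20711640), whose product commits sedoheptulose 1,7-bisphosphate to regeneration, had 177 FPKM in wild type and 88.4 in phyA-1. CFBP1 (AT3G54050, HCEF1 in RefSeq, chromosome 3, deposited locus 20016892 to 20020926), the plastid fructose-1,6-bisphosphatase, had 79.2 and 38.7 FPKM. Levels in phyA-1 were thus 49.9% and 48.8% of wild type, with log2 ratios of -0.99 and -1.02. Both had q = 0.00045 in the authors' deposited table. The deposited locus of CFBP1 also covers AT3G54060, which had 0.346 and 0.332 FPKM, so the level of CFBP1 is less certain. A further plastid form, CFBP2 (AT5G64380), had 6.01 FPKM in wild type and 6.41 in phyA-1 and was not called. The share of CFBP1 in the sum of these plastid forms was 92.9% in wild type and 85.8% in phyA-1. The cytosolic enzyme of sucrose synthesis, cyFBP (AT1G43670), fell too, from 64.2 to 42.5 FPKM, a log2 ratio of -0.59.

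Transketolase moves 2-carbon units between sugar phosphates. Its gene TKL1 (AT3G60750, chromosome 3, 22453696 to 22457152) had 416 FPKM in wild type and 271 in phyA-1 (log2 ratio -0.61; q = 0.00725, the authors' deposited table). TKL2 (AT2G45290, chromosome 2, 18672682 to 18675906) had 59.4 and 56.5 FPKM (log2 ratio -0.07; q = 0.786, the authors' deposited table). In wild type TKL1 supplied 87.5% of the transketolase FPKM, and in phyA-1 82.8%. Nearly all of the lower sum, 98.0%, lay in TKL1. The coding sequences of the pair were 85.1% identical, with a longest identical mRNA stretch of 32 bases.

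Phosphoglycerate kinase and the epimerase fell by less than the bisphosphatases in point value. PGK1 (AT3G12780, chromosome 3, 4060971 to 4063306), a plastid phosphoglycerate kinase gene, had 203 FPKM in wild type and 141 in phyA-1. Its log2 ratio of -0.52 was the smallest of the 7 falls (q = 0.00752, the authors' deposited table). The other plastid gene, PGK2 (AT1G56190), had 76.2 and 69.1 FPKM and was not called, nor was the cytosolic PGK3 (AT1G79550), at 331 and 312 FPKM. PGK1 and PGK2 were 87.2% identical in coding sequence and shared an identical mRNA stretch of 41 bases. RPE (AT5G61410, chromosome 5, 24683606 to 24686105), the plastid ribulose-phosphate 3-epimerase gene, had 196 FPKM in wild type and 118 in phyA-1. The authors' deposited table gives it q = 0.00045, and its log2 ratio was -0.73. The cytosolic epimerase genes AT1G63290 (30.04 and 31.5 FPKM) and AT3G01850 (16.2 and 21.1 FPKM) were not called, and both had positive ratios, 0.07 and 0.36.

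**Figure D3:**
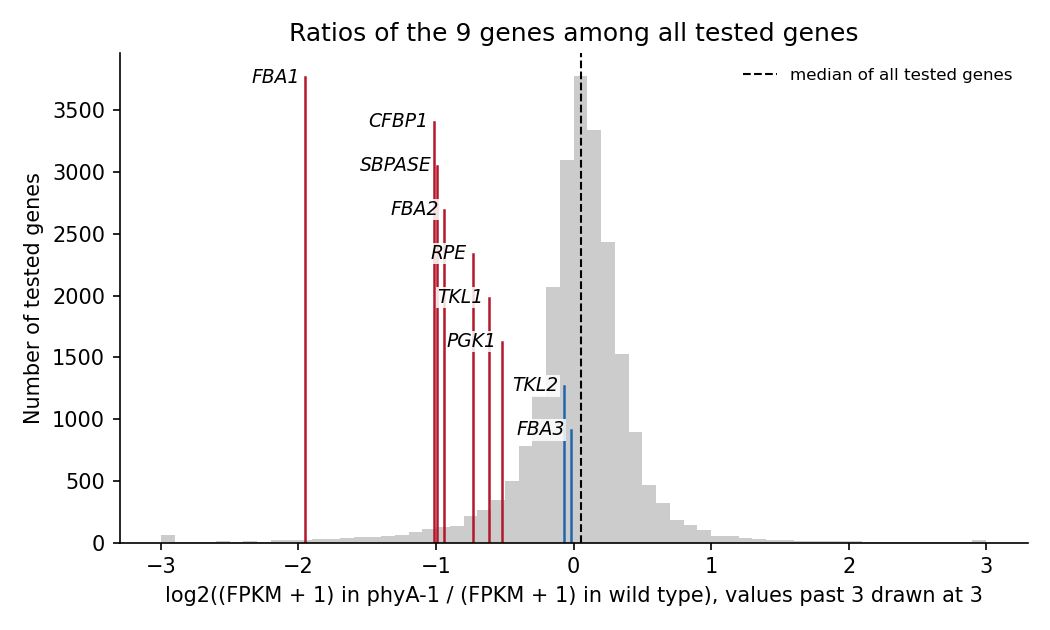
Histogram of log2 ratios, phyA-1 over wild type, for the 22892 tested genes (grey; vertical axis, number of genes), with a line at the ratio of each of the 9 genes, red where called lower and blue where not called. The dashed line is the median of all tested genes, 0.05. Line heights only separate the labels. The 7 red lines lie between -1.95 and -0.52, in the left tail.

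The positions of the 7 falls among all tested genes ran from 0.712% of genes with a lower ratio for FBA1 to 7.34% for PGK1. CFBP1, SBPASE and FBA2 lay close together, with 2.82%, 2.93% and 3.23% of genes lower. The uncalled genes TKL2 and FBA3 lay well inside the distribution, with 31.1% and 37.9% of genes lower. All 9 genes were abundant, as 88.2% or more of tested genes had a lower mean FPKM than any of them. The lowest level of the 9 in wild type was that of TKL2 and the next CFBP1. FBA3 was the fourth highest in wild type and the third highest in phyA-1. Whether level bears on the missing calls was not tested.

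Isomerases that complete the regeneration steps gave mixed calls. RPI3 (AT3G04790, locus shared), the plastid ribose-5-phosphate isomerase, had 65.7 FPKM in wild type and 37.7 in phyA-1, a log2 ratio of -0.78, and fell. Among other isomerase genes, RPI2 (AT2G01290, locus shared) fell as well, with 20.2 and 6.92 FPKM, while RPI1 (11.6 and 14.03 FPKM) and RPI4 (8.39 and 6.94 FPKM) were not called. The plastid triose-phosphate isomerase PDTPI (AT2G21170) had 181 and 176 FPKM and the cytosolic CTIMC (AT3G55440) 571 and 638, without a call for either. Across the 17 genes of the list of other isoforms, which holds plastid and cytosolic forms of the same enzymes, 6 fell, none rose and 11 were not called, with a median log2 ratio of -0.14. The share of all tested genes called lower was 8.54%.

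In a list of 15 other Calvin cycle genes, 10 fell, 1 rose and 4 were not called, with a median log2 ratio of -0.85. Among all tested genes, 8.54% were called lower and 8.61% higher. This list shares PGK2, PDTPI and RPI3 with the list of other isoforms. CP12-2, which holds phosphoribulokinase and glyceraldehyde-3-phosphate dehydrogenase in an inactive complex, fell by 2.42 on the log2 scale. RBCS1B (-1.67), GAPA-2 (-1.64) and RCA (-1.59), for a Rubisco small subunit, a subunit of the plastid dehydrogenase and Rubisco activase, followed. The highest listed genes of the small subunit and CP12 families were not called. These were RBCS1A (5991 FPKM in wild type and 4466 in phyA-1) and CP12-1 (388 and 356 FPKM), chosen for mention after their values were seen. CP12-3, named because it was the single rise, had 21.5 FPKM in wild type and 33.6 in phyA-1. PRK, the kinase that completes regeneration, had 362 and 179 FPKM, a log2 ratio of -1.01, and was chosen for mention after its value was seen.

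Of 10 listed genes, for the thioredoxin system and the methylation of plastid aldolases, 6 fell, none rose and 4 were not called. Their median log2 ratio was -0.51, and 8.54% of all tested genes were called lower. Thioredoxin f activates both bisphosphatases by reduction, and its genes TRXF1 (64.3 FPKM in wild type and 26.9 in phyA-1, log2 ratio -1.23) and TRXF2 (40.9 and 20.1 FPKM, -0.99) both fell. NTRC (locus shared), a plastid thioredoxin reductase with its own thioredoxin domain, had 45.9 and 21.6 FPKM, and TRXM1, for an m-type thioredoxin, had 102 and 62.0 FPKM; both fell. The ferredoxin-thioredoxin reductase gene FTRB (70.0 and 57.0 FPKM) was not called, with p = 0.04385 and q = 0.135 in the authors' deposited table. LSMT-L (locus shared), for the methyltransferase that modifies plastid aldolases, had 8.34 and 6.85 FPKM and was not called. FTRB and LSMT-L were chosen for mention after their values were seen.

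The oxidative pentose phosphate pathway makes NADPH from glucose 6-phosphate and shares several sugar phosphates with the Calvin cycle. Of its 11 listed genes, 3 fell, none rose and 8 were not called, with a median log2 ratio of -0.01. For this list and the next, the shares over all tested genes were 8.54% called lower and 8.61% called higher. G6PD1, a plastid glucose-6-phosphate dehydrogenase gene, had 25.1 FPKM in wild type and 10.6 in phyA-1, and PGD3, for a 6-phosphogluconate dehydrogenase, had 147 and 102 FPKM. G6PD3 (locus shared), of the first family, had 25.5 and 18.7 FPKM. Of 9 genes for the export of triose phosphate and for starch and sucrose synthesis, 4 fell, 1 rose and 4 were not called, with a median log2 ratio of -0.32. The triose phosphate translocator TPT (locus shared) had 209 FPKM in wild type and 106 in phyA-1, and the ADP-glucose pyrophosphorylase genes APL1 (locus shared) and APS1 had 39.4 and 21.3 FPKM and 48.4 and 27.9 FPKM. SS4, a starch synthase gene, had 15.2 and 9.43 FPKM. The single rise of this list, named for that reason, was PGM1, plastid phosphoglucomutase, with 12.98 and 20.0 FPKM. The differences between these lists were not tested.

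**Figure D4:**
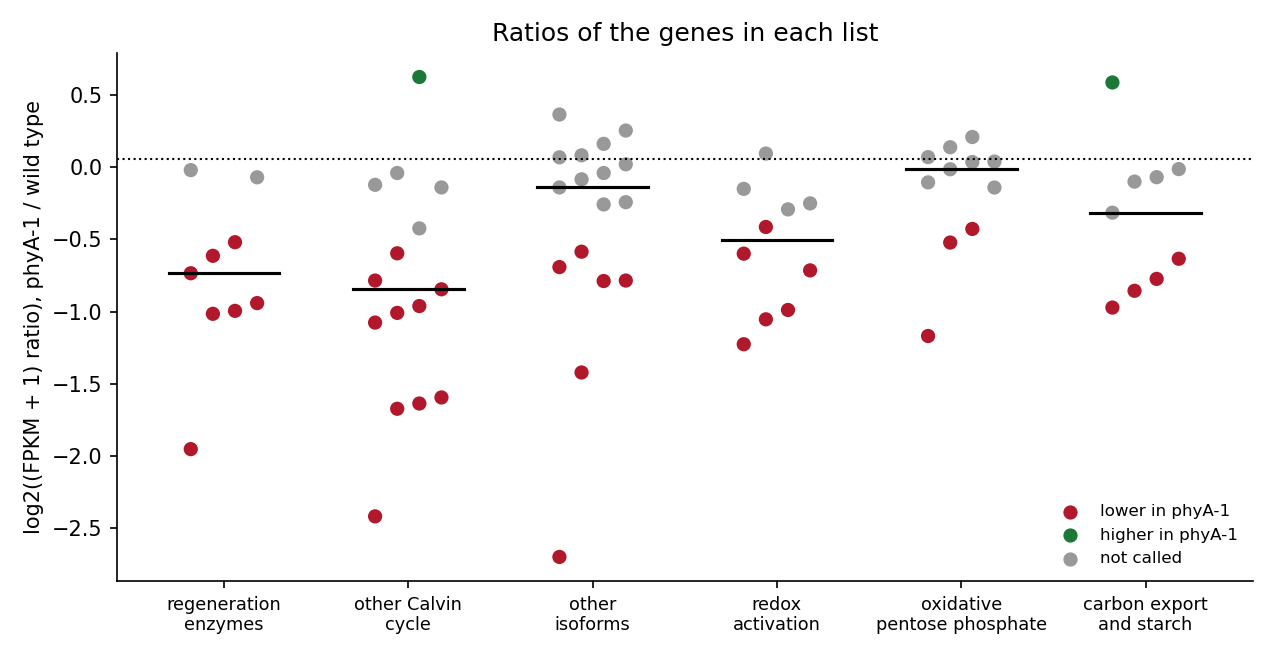
Log2 ratio, phyA-1 over wild type, of every gene in the 6 lists, with 1 point per gene (red lower, green higher, grey not called), a bar at each list's median and a dotted line at the median of all tested genes. The bar lies at -0.73 for the regeneration enzymes, at -0.85 for the other Calvin cycle genes and at -0.01 for the oxidative pentose phosphate pathway. PGK2, PDTPI and RPI3 stand in both the second and the third list.

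The tested genes most like the 9 were sought by distance in the plane of log2 ratio and log2 mean FPKM from the medians of the 9, at -0.73 and 172 FPKM. With 1 pooled value per genotype this likeness rests on 2 values per gene. The 5 nearest genes with a symbol, whose lower ratios follow from this choice, were EMB3143 (AT5G58250, 213 FPKM in wild type and 129 in phyA-1), HEMC (208 and 115 FPKM), the porphobilinogen deaminase of chlorophyll synthesis, EMB3136 (242 and 147 FPKM), PSRP3/1 (241 and 130 FPKM) and PSAE-2 (249 and 139 FPKM), a photosystem I subunit. The loci of all but EMB3143 are shared with another gene.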

How the data were processed

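RNA-seq of 6 libraries, 3 of wild type and 3 of phyA-1, was compared through 1 table without a header, 1 line per gene. Per the submitters' processing notes, Bowtie was used with the build TAIR10; which tools estimated and tested the levels is not stated. The authors deposited 1 FPKM value per gene and genotype, pooled over libraries, with a log2 ratio (wild type over phyA-1), a score of their test, and the p-value and q-value of each gene. The deposited log2 ratio equalled that of the FPKM values within 0.001 in 99.97% of tested genes where finite, and a q-value of 0.05 or below matched the authors' own call for 100% of tested genes. The lowest deposited p-value, 5e-05, was shared by 1668 genes, 5 of the 9 among them. Low FPKM values were searched for whole-read steps. At the best trial step size, 13.4% (phyA-1) and 13.5% (wild type) of them lay within 0.05 of a whole number of steps. Some values pass this tolerance without any steps, so these shares do not show whole-read steps. The values are pooled and were multiplied by RefSeq gene lengths, so this check could not give depth per library, which is unknown.

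Ratios, with a pseudocount of 1 FPKM, list counts, isoform shares and promoter searches were computed in Python 3.11.15 (pandas 2.3.3, NumPy 2.4.6, Biopython 1.88). The Benjamini-Hochberg step was tested on simulated data. Coordinates of genes are the deposited ones, 1-based; promoter windows and transcripts are RefSeq's on TAIR10.1 (32810 of 33557 identifiers matched); the FBA3 window is not reported here. The members and lists were chosen with earlier results of these data known. Named are PHYA, the 9 genes, the other isoforms, up to 4 called genes per list by size of ratio, the 5 nearest genes and called neighbours; exceptions are stated. Alternatives were a q-value of 0.01, Benjamini-Hochberg adjustment over all tested genes or those with a mean of at least 5 FPKM, pseudocounts of 0.1 and 5 FPKM, and other scalings.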

Additional observations from a re-analysis of the deposited data

How the results depend on the processing

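The same 7 genes were called lower with a q-value of 0.01 and with Benjamini-Hochberg adjustment over all tested genes or over those with a mean of at least 5 FPKM; without CFBP1, whose locus covers another gene, 6 of 8 were. Counts of the 5 other lists stayed within 1.5 times under the same alternatives. The median log2 ratio of the 9 genes, -0.73, was -0.74 with a pseudocount of 0.1 FPKM, -0.72 with 5 FPKM, -0.81 when centred on the median of genes that reach 5 FPKM in each genotype, -0.77 when scaled to the summed FPKM without the highest gene, and -0.67 without CFBP1, an alternative chosen after seeing the data. No ratio of the 9 changed sign. None could, because a pseudocount keeps the sign and both scalings lowered ratios that were already negative. Without FBA1, FBA3 supplied 26.6% of the remaining plastid aldolase FPKM in wild type and 40.7% in phyA-1. No paired analysis was possible because the table holds pooled values without columns per library, and leaving out a replicate was not run for the same reason. Precision is known only through the deposited p-values, which end at 5e-05.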

Other observations

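The nearest tested gene on each side of the 9 genes, by start of the deposited locus, gave 18 neighbours. Of these 3 fell, 1 rose and 14 were not called. Their median log2 ratio was -0.0012. AT3G54060 was taken as the gene before CFBP1 because they share a deposited locus. In the TAIR10.1 annotation both neighbours of CFBP1 lie towards its end, so the gene upstream of CFBP1 was not among the 18. Of all tested genes, 8.54% were called lower, 8.61% higher and 17.2% in either direction. A pair of the falls has the same position relative to 2 aldolase genes. It was singled out after the calls were known, and the shared arrangement was not tested.

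FBA1 and FBA2 each lie end to end with a B-box gene on the opposite strand. BBX18 (AT2G21320) ends 134 bases from the end of FBA1 in the TAIR10.1 annotation, and had 17.7 FPKM in wild type and 2.15 in phyA-1 (log2 ratio -2.57; q = 0.00045, the authors' deposited table). BBX19 (AT4G38960) ends 154 bases from FBA2 and had 13.8 and 8.96 FPKM (log2 ratio -0.58; q = 0.00383, the authors' deposited table). In both pairs the aldolase gene and the B-box gene fell, and the ratios of FBA1 and BBX18 were lower than those of FBA2 and BBX19. Strand information of the libraries is not stated, and the part of reads that run past a gene's end was not tested. The neighbour of FBA3 that fell, RHA2B, a RING-H2 finger gene, lies 3620 bases away in a divergent arrangement and had 47.2 and 32.1 FPKM, while FBA3 itself was not called. The single rise was AT3G54080, which lies 6444 bases from the end of CFBP1 in the TAIR10.1 annotation and had 12.7 and 18.2 FPKM. AT3G54060 lies nearer to CFBP1 on the same side.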
